A study of Mus musculus with 20 samples.

Results

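The Zbtb genes encode transcription factors of the BTB zinc-finger family. They were taken as the protein-coding mouse genes whose symbol is Zbtb followed by a digit, which gave 41 of the 21900 protein-coding genes of the annotation. One of them, Zbtb8os, is named only for lying on the opposite strand at the Zbtb8 locus and encodes archease, a cofactor of tRNA ligation, so 40 of the 41 are family genes by name. A region belongs to a Zbtb gene when its centre is nearest to that gene among protein-coding genes, at distance 0 inside it and at most 100 kb away. This gave 75 of 22081 distinct regions, at 35 of the 41 genes.

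Members of the family join an amino-terminal BTB domain, through which they pair and recruit corepressors, to carboxy-terminal zinc fingers that read DNA. In T cells the best known is Zbtb7b (ThPOK), which directs developing thymocytes to the CD4 lineage and keeps mature CD4+ T cells from taking up the CD8 programme. Bcl11b, a zinc-finger factor of the T lineage, and Foxp3, the factor that defines regulatory T (Treg) cells, are the proteins whose binding was mapped.

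The data come from chromatin immunoprecipitation and sequencing (ChIP-seq) of 20 samples in 9 groups, 12 of them immunoprecipitated and 8 input DNA, all from C57BL/6 mice. For Bcl11b there were 3 libraries of wild-type (WT) Treg cells and 3 of WT cells labelled Tn, both of genotype Foxp3-IRES-YFP-Cre and sorted as CD4+YFP+. A further 2 Bcl11b libraries came from KIKO cells, which are Foxp3-GFPKO cells sorted as CD4+GFP+ and described as Treg cells devoid of Foxp3. For Foxp3 there were 2 libraries of the same WT Treg genotype and 2 of Bcl11b-deficient (KO) Treg cells, which carry floxed Bcl11b (Bcl11b f/f) together with the same Cre allele. Every group but KIKO thus carries the YFP-Cre allele at Foxp3, and the Cre that deletes Bcl11b is expressed from the Foxp3 locus. The labels give the Tn cells the sort markers of the Treg cells and do not expand the name, and neither the ages of the animals nor whether replicates came from separate animals was found in the sources used here.

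The authors deposited 12 lists of mm10 positions, 3 for each of 4 comparisons, in which a region is specific to one side, common, or specific to the other. WT Treg Bcl11b enters 3 of the comparisons and WT Treg Foxp3 2, so they are not independent. Below, a WT Treg region that is specific against KIKO or KO cells is called lost, which says only that the second set does not list it. The lists carry no read count, score or replicate value. Depth is therefore unknown, no test over samples could be made, and 95% Wilson intervals of shares cover counting error only. Several regions can share 1 gene and are then not separate observations. A list made from pooled cells cannot tell weak binding in all cells from binding in a few, and it holds no expression, so the labelled cell types were not checked against marker genes.

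Promoter stretches bound at Zbtb genes are shown first, because 34 of the 75 region centres had a gene end within 1 kb. That count takes either end of any protein-coding gene. Within 1 kb of a listed start of their gene lay 30 of the 72 regions whose gene has one. Each stretch is the part of a region that falls in the 250 bases before a start site and outside every annotated gene, read 5′ to 3′ on the gene's strand, from the RefSeq promoter table of GRCm38.p6, which has the coordinates of mm10. The table matched 36 of the 41 genes. Stretches of Zbtb3, Zbtb26 and Zbtb39 were also obtained and are not shown. Capitals mark matches on either strand to the motifs listed under the sequences. The first 3 were listed for Foxp3 but not for Treg Bcl11b: Zbtb5 at chr4:45012413-45012662 (minus strand) and Zbtb24 at chr10:41450108-41450357 (plus strand), both kept in KO cells, and Zbtb21 at chr16:97962628-97962822 (minus strand), lost in them. Zbtb9 at chr17:26972929-26973178 (plus strand) was listed for Foxp3 and for Tn Bcl11b. The last 3 were listed for both factors in WT Treg cells: Zbtb33 at chrX:38189639-38189792 (plus strand), Zbtb34 at chr2:33431406-33431574 (minus strand) and Zbtb6 at chr2:37430920-37431039 (minus strand).
Zbtb5: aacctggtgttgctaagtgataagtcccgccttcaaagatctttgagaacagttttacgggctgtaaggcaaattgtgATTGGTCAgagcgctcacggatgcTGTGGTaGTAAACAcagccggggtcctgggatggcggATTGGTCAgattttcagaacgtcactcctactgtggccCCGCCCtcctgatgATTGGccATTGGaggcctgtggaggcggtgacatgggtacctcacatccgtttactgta
Zbtb24: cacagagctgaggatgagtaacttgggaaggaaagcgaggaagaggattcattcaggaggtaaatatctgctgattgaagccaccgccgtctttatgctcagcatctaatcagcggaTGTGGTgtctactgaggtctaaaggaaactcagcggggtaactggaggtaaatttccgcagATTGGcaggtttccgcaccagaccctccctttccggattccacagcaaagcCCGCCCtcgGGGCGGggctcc
Zbtb21: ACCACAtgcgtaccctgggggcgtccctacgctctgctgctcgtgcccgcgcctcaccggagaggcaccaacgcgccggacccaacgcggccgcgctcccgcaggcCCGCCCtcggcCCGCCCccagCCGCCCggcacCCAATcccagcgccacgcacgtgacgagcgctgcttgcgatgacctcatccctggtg
Zbtb9: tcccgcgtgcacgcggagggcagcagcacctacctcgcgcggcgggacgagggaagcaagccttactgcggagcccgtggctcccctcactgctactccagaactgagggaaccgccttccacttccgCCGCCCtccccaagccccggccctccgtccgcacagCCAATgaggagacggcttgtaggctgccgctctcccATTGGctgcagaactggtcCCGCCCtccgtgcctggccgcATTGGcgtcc
Zbtb33: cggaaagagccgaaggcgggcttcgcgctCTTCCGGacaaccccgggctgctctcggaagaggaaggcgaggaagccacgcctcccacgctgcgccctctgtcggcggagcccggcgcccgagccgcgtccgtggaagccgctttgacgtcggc
Zbtb34: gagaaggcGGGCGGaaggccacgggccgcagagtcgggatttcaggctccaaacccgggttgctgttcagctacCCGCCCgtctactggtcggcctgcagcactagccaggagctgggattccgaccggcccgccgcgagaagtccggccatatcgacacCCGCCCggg
Zbtb6: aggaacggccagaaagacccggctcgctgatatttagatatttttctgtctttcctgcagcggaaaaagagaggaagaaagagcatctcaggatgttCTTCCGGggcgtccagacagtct

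The motifs searched were TGTTTAC and TGTTTGC for forkhead factors, TGTGGT for Runx, TGACCA as a Bcl11-type word, CCGGAAG for Ets, CCAAT for NF-Y and GGGCGG for Sp and Klf factors. TGACCA and CCAAT can share bases when read on the same strand. They do so at both TGACCA sites of Zbtb5, on the strand opposite to the one shown. TGACCA also stood in the Zbtb26 stretch, which is not shown and was listed for both factors. Counted over whole windows of 300 bases (250 before and 50 after a start), the Ets word stood in 12 of 49 Zbtb windows (24.5%) and in 11.6% of 21263 windows of all protein-coding genes. Among windows that a region overlapped, it stood in 11 of 23 Zbtb windows (47.8%) and in 26.4% of 6219. The Sp and Klf word stood in 33 of the 49 Zbtb windows (67.3%, against 46.2% of all) and in 21 of the 23 overlapped ones (91.3%, against 68.1%). Forkhead words were rare everywhere: TGTTTAC stood in 1 Zbtb window, that of Zbtb5, and in 3.01% of all windows, and TGTTTGC in 2 Zbtb windows and 4.58%. TGACCA stood in 14.3% of Zbtb and 12.5% of all windows, TGTGGT in 22.4% and 15.0%, and CCAAT in 30.6% and 38.2%. Several windows can belong to 1 gene, and a match is a description of letters.

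Regions were found at most Zbtb genes. At least 1 region was nearest to 35 of 41 Zbtb genes (85.4%, interval 71.6 to 93.1), while 50.3% of all protein-coding genes had one. Foxp3-listed regions, from WT or KO Treg cells, lay at 34 Zbtb genes (82.9%, against 44.1% of all genes). Zbtb12 is among them through a KO-specific region alone. Bcl11b-listed regions, from any of the 3 cell types, lay at 24 Zbtb genes (58.5%, against 30.8%). Both factors were listed at 23 genes, Foxp3 alone at 11, and Bcl11b alone at 1, Zbtb39. Of the genes with regions, 15 had 1, 12 had 2 and 8 had 3 or more, with a median of 2 beside 1 over all genes with regions. The median length was 18.3 kb for Zbtb genes and 17.1 kb for all genes. Whether promoter type or expression moves with these counts was not tested.

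**Figure D1:**
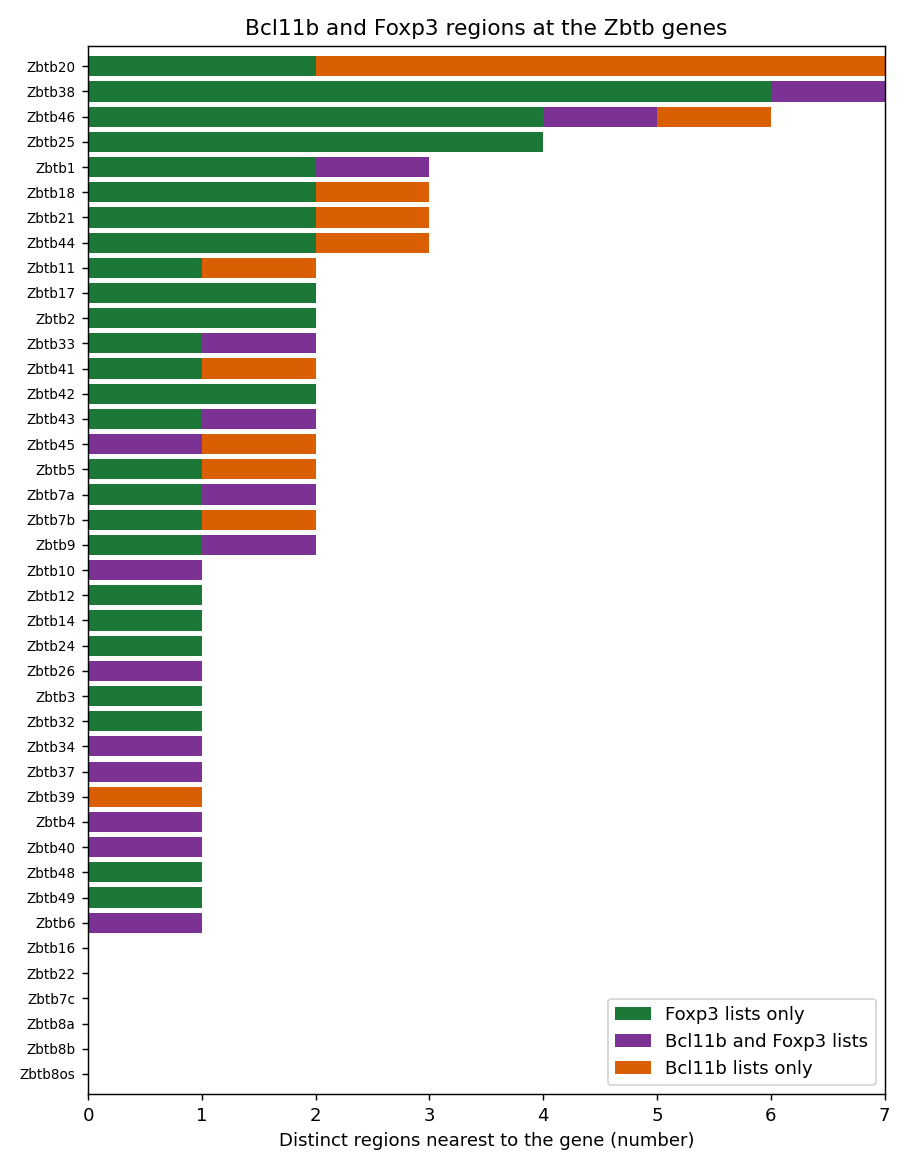
Distinct regions nearest to each of the 41 Zbtb genes (horizontal axis, number), coloured by whether the Foxp3 lists, the Bcl11b lists or both hold the region. Zbtb20 and Zbtb38 carried 7 regions each, Zbtb20 mostly from Bcl11b lists and Zbtb38 mostly from Foxp3 lists, and 6 genes carried none.

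Over all lists, 45 of the 75 regions (60%) were held by Foxp3 lists only, 15 (20%) by Bcl11b lists only and 15 (20%) by both, beside 57.8%, 17.4% and 24.8% of all regions. Promoter windows were often overlapped by a region: this held for 20 of the 36 Zbtb genes in the table (55.6%), beside 31.8% of 17492 genes. An overlap need not reach the start site, and at Zbtb41 it was 12 bp. At these 20 promoters, Foxp3 lists alone held the region at 10 genes, both factors at 9, and Bcl11b alone at 1. At Zbtb17, which encodes Miz-1, the partner of Myc in repression, the promoter region at 141444435 to 141444825 of chromosome 4 was in the common or shared list of all 4 comparisons. Its centre is nearest to the overlapping gene model Gm42337, so it is not among the 75.

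Zbtb7b itself carried 2 regions. The first, at 89378293 to 89378518 of chromosome 3, lay inside the gene, 761 bp from the end opposite its start sites. Its centre was also 762 bp from the gene Dcst2. This region was common to Treg and Tn Bcl11b, and no list of the KIKO or Foxp3 comparisons held it. Its width of 226 bp is the modal width of the Tn set. The second, at 89393511 to 89393928, was 418 bp wide and centred 46 bp outside the gene and 341 bp before the first listed start. It was common to Foxp3 in WT and KO Treg cells but was not listed in the comparison of Bcl11b with Foxp3, although WT Foxp3 enters both. The second listed start of Zbtb7b, at 89387671, had no region. No region nearest to another gene lay within 10 kb of Zbtb7b; the closest were at Flad1, 18.2 kb away, and Shc1, 24.8 kb away, both Foxp3-only and common with KO.

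Lymphocyte regulators were described together, in a group formed with the values known. The 8 genes Zbtb1, Zbtb7a, Zbtb7b, Zbtb16, Zbtb17, Zbtb24, Zbtb25 and Zbtb32 held 15 regions, and Zbtb16 held none of them. Foxp3 lists alone held 12, both factors 2 and Bcl11b lists alone 1, where 57.8%, 24.8% and 17.4% of all regions fall in these types. These counts depend on the choice of members, because Zbtb20, Zbtb38 and Zbtb46 also have immune roles but are described in other groups below. Foxp3 lists alone held 2 of the 7 regions of Zbtb20, 6 of the 7 of Zbtb38 and 4 of the 6 of Zbtb46. Only 2 of the 15 were in the comparison of Treg with Tn, both common. Of the 13 on the WT Foxp3 side, 4 were lost in KO cells, near the share over all WT Foxp3 regions (31.3%). Zbtb1, needed for lymphocyte development, and Zbtb25 overlap at their starts on chromosome 12 and held 7 regions between them. All 7 were Foxp3-listed and 6 of them were common to WT and KO cells. The exception was the Zbtb25 region at 76367364 to 76367583, which was lost. A single one, inside Zbtb1 at 76374081 to 76374300, was also shared with Bcl11b.

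Zbtb7a encodes LRF, a close relative of ThPOK. Its 2 regions stood 118 bp apart inside the gene. The one at 81137289 to 81137564 of chromosome 10 was Foxp3-only and lost in KO cells. The one at 81137683 to 81137880 was common to Treg and Tn Bcl11b, lost in KIKO cells and shared with Foxp3, but the comparison of WT and KO Foxp3 did not list it. Zbtb17 had a common and a lost Foxp3 region, both Foxp3-only. Zbtb32, which encodes a repressor induced in activated lymphocytes, had 1 Foxp3-only region, 269 bp outside the gene, and it was lost; the gene Kmt2b lies 355 bp from its centre. Zbtb24, mutated in a human immunodeficiency with centromere instability, had 1, kept over its promoter. Zbtb16 encodes PLZF, the factor of innate-like T cells, and no region was listed in the gene or within 50 kb of it.

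**Figure D2:**
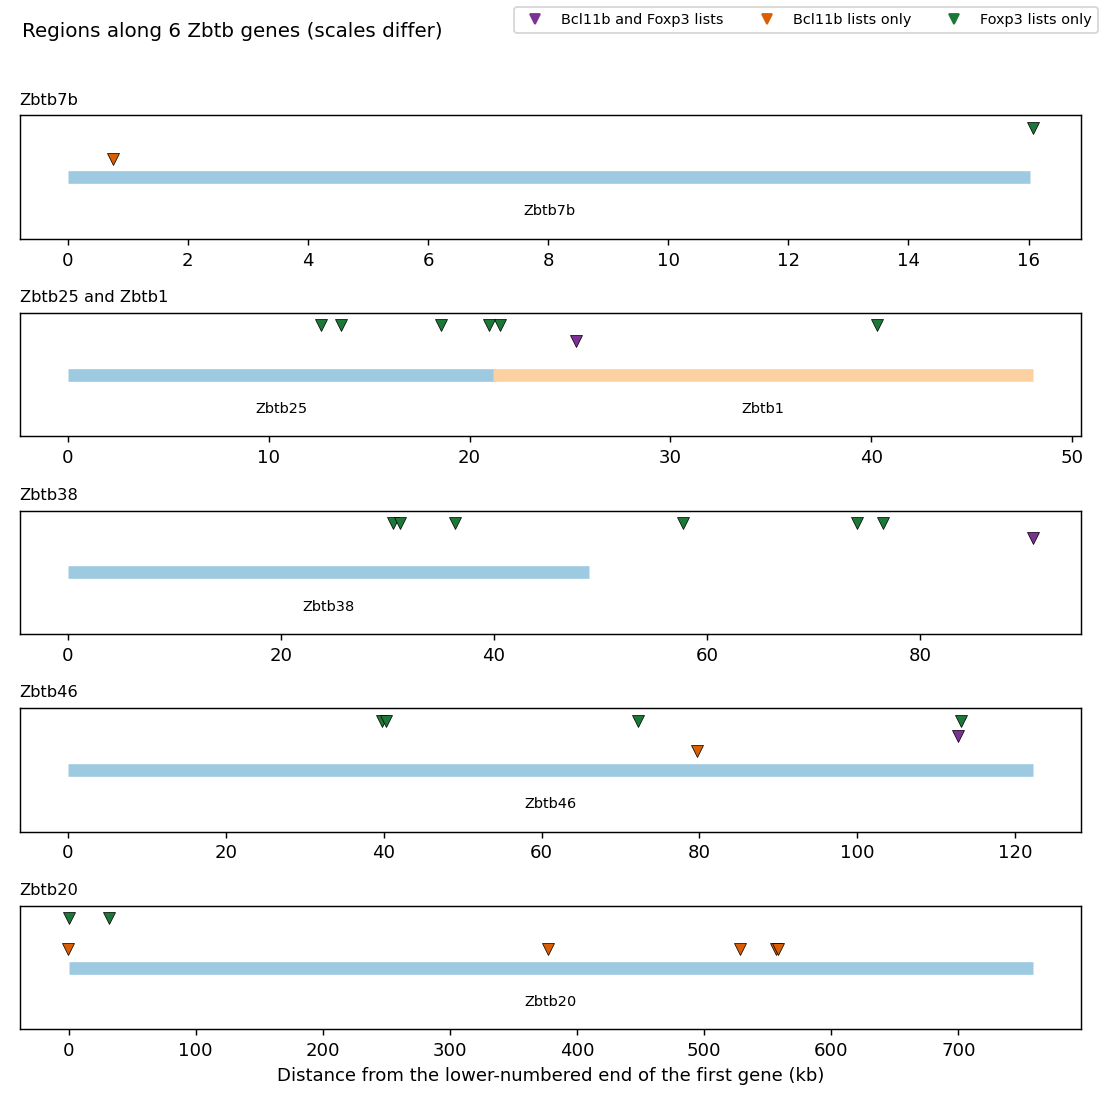
Position of each region (triangles, one row of triangles per list type) along Zbtb7b, Zbtb25 with Zbtb1, Zbtb38, Zbtb46 and Zbtb20 (bars), in kb from the lower-numbered end of the first gene, with a separate scale in each panel. Foxp3-listed regions fill the Zbtb25 and Zbtb1 locus and the flank of Zbtb38. Of the regions assigned to Zbtb20, those away from its lower-numbered end are Bcl11b-listed only.

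The 3 genes for factors that bind methylated DNA, Zbtb4, Zbtb33 (Kaiso) and Zbtb38, held 10 regions, all in Foxp3 lists and 3 also in Bcl11b lists. Of the 8 on the WT Foxp3 side, 5 were listed as lost in KO cells, beside 31.3% of all WT Foxp3 regions; the group was formed with the values known, so nothing is read from this count. They were the single region of Zbtb4, both regions of Zbtb33 and 2 of Zbtb38. Zbtb38 carried 7 regions, 3 inside the gene and 4 beyond its start, between 8.86 and 41.7 kb away. Against KO cells, 3 were common, 2 lost and 2 KO-specific, the KO-specific ones at 96713823 to 96714098 and 96756736 to 96757011 of chromosome 9. The farthest, at 96773247 to 96773466, was the only one shared with Bcl11b. The promoter region of Zbtb33, shown above, was common with Tn, common with KIKO and shared between the factors, yet lost for Foxp3 in KO cells.

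The genes Zbtb18, Zbtb20 and Zbtb46, grouped for roles in cells other than T cells, held 16 regions, 8 of them in Bcl11b lists. In the comparison with Foxp3, 4 of their 5 Bcl11b regions were Bcl11b-only, beside 34.5% of all. This group too was formed with the values known, and 2 of the 4 are in Zbtb20. Zbtb20, which acts in hippocampal neurons and plasma cells, is 759 kb long and carried 7 regions, 5 of them in Bcl11b lists only. Of these, the regions at 43404097 to 43404294 and 43433262 to 43433459 of chromosome 16 were Treg-specific, lost in KIKO cells and Bcl11b-only. The other 3 were common to Treg and Tn, were 226 bp wide and stood in no other comparison. Among the 7, Foxp3 was listed only towards the lower-numbered end, with a common region at 42875591 to 42875866 and a lost one at 42907295 to 42907647. A further 2 regions within Zbtb20 or 10 kb of it are nearest to Tigit and not counted. Zbtb46, a marker gene of classical dendritic cells, carried 6 regions: 1 that was Treg-specific, lost in KIKO cells and Bcl11b-only, 3 common to WT and KO Foxp3 (1 of them shared with Bcl11b), and 2 KO-specific. Zbtb18, which acts in cortical neurons, had 1 Bcl11b-only region inside the gene and 2 Foxp3 regions before its start, 1 lost and 1 common.

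Some members are neighbours. Zbtb6 and Zbtb26 follow each other on chromosome 2, as do Zbtb34 and Zbtb43, and the 4 genes held 5 regions, 4 of them at gene ends and shared between Bcl11b and Foxp3. Those of Zbtb34 and Zbtb43 were kept in KIKO cells and that of Zbtb6 was lost. The Zbtb26 region, at 37442999 to 37443395, was shared and common to WT and KO Foxp3 but absent from the Tn and KIKO lists, and the gene Rabgap1 begins or ends 66 bp from its centre.

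The first comparison sets Bcl11b regions of Treg cells against those of Tn cells. Of 23 Treg regions at Zbtb genes, 17 were common and 6 Treg-specific (26.1%, interval 12.5 to 46.5), beside 31.1% of the 6518 Treg regions in all. The Treg-specific ones were 2 regions of Zbtb20 and 1 each at Zbtb5, Zbtb21, Zbtb37 and Zbtb46. Of 19 Tn regions, 2 were Tn-specific (10.5%, interval 2.94 to 31.4), beside 13.9% of all. One lay inside Zbtb44 at 31030994 to 31031219 of chromosome 9. The other was the promoter region of Zbtb9, at 26972892 to 26973393 of chromosome 17, the widest of the 75 at 502 bp and Foxp3-only in Treg cells. Both shares lie near those of all regions.

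The second sets Treg cells against KIKO cells, so that Bcl11b regions can be read with and without Foxp3. Of 18 Treg regions, 12 at 11 genes were lost (66.7%, interval 43.7 to 83.7), beside 62.3% of all. The 6 kept ones lay at Zbtb5, Zbtb33, Zbtb34, Zbtb41, Zbtb43 and Zbtb45, and of these Zbtb45 also had a lost region 251 bp away. Zbtb5, which encodes a repressor of the cell-cycle inhibitor p21, had the only region that was Treg-specific and yet kept in KIKO cells, at 44997072 to 44997269 of chromosome 4. No Zbtb region was KIKO-specific, 0 of 6, beside 3.05% of all. With 0 of 6 seen, a rough upper limit of the underlying share is 50% (3 divided by 6), and the upper end of the Wilson interval is 39.0%. So few regions leave this share poorly known.

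The third sets the lists of both factors in WT Treg cells against each other. Of 23 Bcl11b regions, 14 at 14 genes were shared and 9 were Bcl11b-only (39.1%, interval 22.2 to 59.2), beside 34.5% of all. Of 41 Foxp3 regions, 27 were Foxp3-only (65.9%, interval 50.5 to 78.4), beside 66.8% of all. Shared regions lay at Zbtb1, Zbtb4, Zbtb6, Zbtb7a, Zbtb10, Zbtb26, Zbtb33, Zbtb34, Zbtb37, Zbtb38, Zbtb40, Zbtb43, Zbtb45 and Zbtb46. The Bcl11b-only ones lay inside the genes Zbtb5, Zbtb11, Zbtb18, Zbtb20, Zbtb21, Zbtb41, Zbtb45 and Zbtb46. All 9 had the modal width of the Treg Bcl11b set, 198 bp, as did 93.6% of all Bcl11b-only regions.

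The fourth sets Foxp3 regions of WT Treg cells against those of cells that lack Bcl11b. Of 52 WT regions at Zbtb genes, 37 were common and 15 at 13 genes were lost (28.8%, interval 18.3 to 42.3), beside 31.3% of all. Of 43 KO regions, 6 were KO-specific (14.0%, interval 6.56 to 27.3), beside 17.9% of all. These were 2 at Zbtb38, 2 at Zbtb46 and 1 each at Zbtb12 and Zbtb44, each 276 bp wide, the modal width of the KO set. Lost regions were single except for 2 each at Zbtb33 and Zbtb38. The others lay at Zbtb4, Zbtb7a, Zbtb9, Zbtb10, Zbtb17, Zbtb18, Zbtb20, Zbtb21, Zbtb25, Zbtb32 and Zbtb37. Among regions wider than the largest modal width, 276 bp, the Bcl11b-only share was 0 of 5 and the KO-specific share 0 of 17, beside 3.45% and 6.31% of all regions so wide. The Tn-specific share was 1 of 4 and the lost Foxp3 share 4 of 21. Their values over all wide regions were not worked out, so nothing is read from them. For each of the 8 shares given for the 4 comparisons, the value over all regions fell inside the interval of the Zbtb regions.

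**Figure D3:**
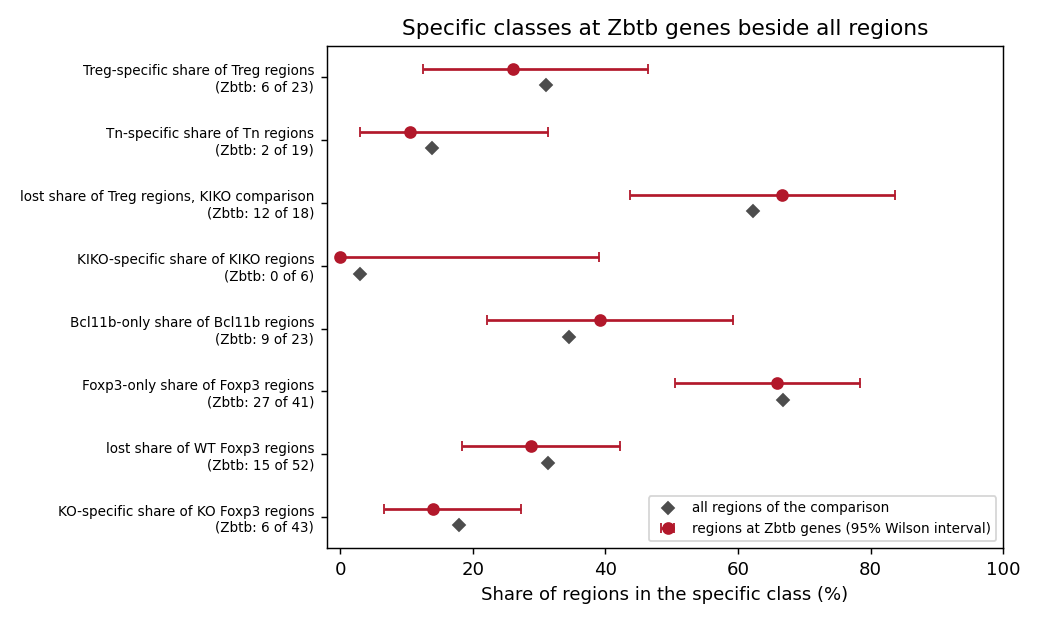
Share of regions in each specific class (horizontal axis, %), for regions at Zbtb genes (circles with 95% Wilson intervals) and for all regions of the comparison (diamonds). Every diamond lies inside the interval of its circle.

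The share of regions near gene ends was highest for those listed for both factors. Within 1 kb of an end lay 11 of 15 such Zbtb regions (73.3%, interval 48.0 to 89.1), 19 of 45 in Foxp3 lists only (42.2%, interval 29.0 to 56.7) and 4 of 15 in Bcl11b lists only (26.7%, interval 10.9 to 52.0). The same shares over all regions were 55.3%, 36.6% and 17.5%. By class, 1 of 9 Bcl11b-only, 10 of 14 shared and 11 of 27 Foxp3-only regions lay there, beside 13.6%, 54.2% and 42.2% of all such regions. For Foxp3 in WT and KO cells, 6 of 15 lost, 22 of 37 common and 1 of 6 KO-specific regions did. Over all regions these shares were 42.9%, 47.8% and 14.2%, so low shares of Bcl11b-only and KO-specific regions were not particular to Zbtb genes. The intervals of the first and last list types overlap. Over all 75, 45.3% (34.6 to 56.6) lay within 1 kb of a gene end, beside 37.9% of all regions, and 62.7% lay inside the gene, beside 60.4%.

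**Figure D4:**
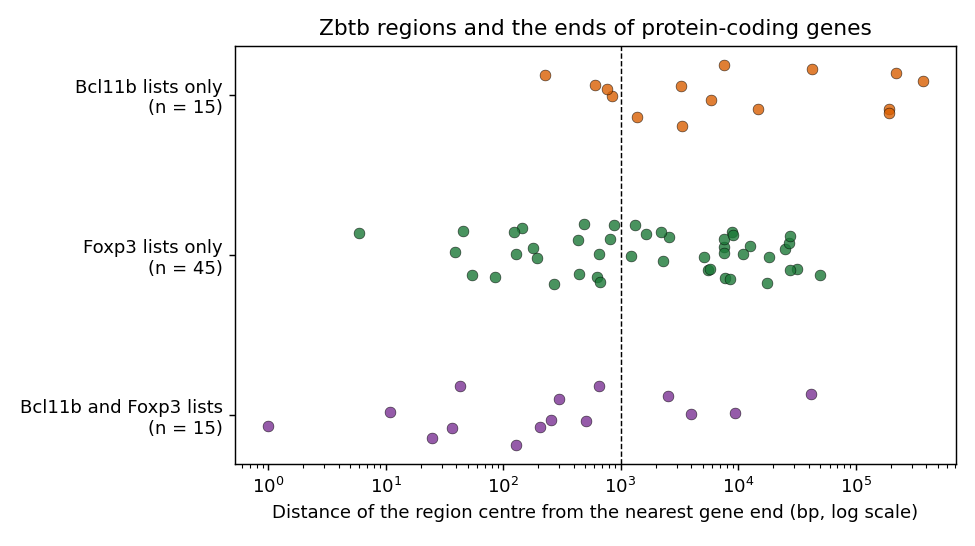
Distance of each of the 75 region centres from the nearest end of a protein-coding gene (horizontal axis, bp, log scale), by the lists that hold the region; the vertical scatter within a row is only for display and the dashed line marks 1 kb. To its left lie 11 of 15 regions of both factors, 19 of 45 of Foxp3 alone and 4 of 15 of Bcl11b alone.

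Listed in all 4 comparisons were 7 of the 75 Zbtb regions, a share near that of all regions (2359 of 22081). They lay at Zbtb4, Zbtb6, Zbtb33, Zbtb37, Zbtb40, Zbtb43 and Zbtb45. All 7 lay within 1 kb of a gene end, the farthest at 508 bp, beside 61.0% of the 2359 such regions of the series. Their Foxp3 class in KO cells was common at Zbtb6, Zbtb40, Zbtb43 and Zbtb45 and lost at Zbtb4, Zbtb33 and Zbtb37. The Zbtb37 region, at 161034932 to 161035305 of chromosome 1, was the only one of the 75 that was Treg-specific, lost in KIKO cells, shared between the factors and lost for Foxp3 in KO cells.

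The lists do not always match where they share a set. Of 37 regions listed as common to WT and KO Foxp3, 13 (35.1%, among them the Zbtb7b promoter region) were missing from the Bcl11b and Foxp3 comparison, beside 18.3% of all such regions. Of these 13, 11 had the KO modal width of 276 bp. Of 17 regions common to Treg and Tn, 5 (29.4%, beside 15.7%) were in neither other Bcl11b comparison, and all 5 had the Tn modal width. The definition of a common region is not given here, so WT binding at these regions rests on 1 comparison. In the other direction, 5 of the 14 shared regions (35.7%, beside 37.1%) were not in the Tn or KIKO lists.

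The 6 genes with no region were Zbtb7c, Zbtb8a, Zbtb8b, Zbtb8os, Zbtb16 and Zbtb22. Assignment touches a pair of these. A Foxp3-only region common with KO stood 205 bp from Zbtb22, at 33919389 to 33919671 of chromosome 17, but is nearest to Tapbp. A region shared by the factors stood 197 bp from Zbtb8os, was lost in KIKO cells and common to WT and KO Foxp3, and is nearest to Rbbp4. Of the 75 regions, 9 had another protein-coding gene within 1 kb of their centre.

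Genes related to the family were described in the same way. Of 8 BTB zinc-finger genes with other symbols, 7 had a region, 17 regions in all; among all protein-coding genes 50.3% had one. Bcl6, the factor of follicular helper T cells, had 4, of which 3 were common to WT and KO Foxp3 and none lost. Patz1, a repressor of ThPOK in CD8 cells, had 3, 1 each common, lost and KO-specific for Foxp3. Gzf1 and Mynn had 3 each, and of those of Mynn 2 were lost and 1 common for Foxp3. Of 13 genes of the CD4 and CD8 lineage choice, 12 had a region, 52 in all, led by Runx1 with 9. Lef1, Tcf7 and Tcf12 had 7 each, Myb 6, Tox 4 and Gata3 3. Runx3, which acts against ThPOK in CD8 T cells, had 4, of which 3 were KO-specific for Foxp3. In this list as a whole, 6 of 32 KO Foxp3 regions were KO-specific, near the 17.9% of all. All 8 genes of BTB partners and corepressors had a region, 26 in all, and Bcor, a corepressor of Bcl6, had 11, with 5 lost and 5 common for Foxp3. Ctcf, Ncor1 and Sin3a had 3 each. Loss of Foxp3 in KO cells was listed for 4 of 11, 8 of 34 and 5 of 20 WT regions in the 3 lists, beside 15 of 52 at the Zbtb genes and 31.3% of all WT Foxp3 regions.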

How the data were processed

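Bcl11b and Foxp3 ChIP-seq regions of mouse CD4+ T cells were analysed. The authors deposited 12 lists with 3 columns (chromosome, start, end) and no unit of signal. The submitters' processing notes name HOMER 4.10.1, HISAT2 2.1.0, deepTools, SAMtools 1.3, cutadapt 1.12, Trim Galore 0.4.2, FastQC and build mm10. The role of each, any pooling of replicates, the peak threshold and what made a region common were not found in these sources. Of 47553 rows, 127 repeats were dropped, and 25 regions that stood in 2 classes of a comparison, none at a Zbtb gene, were left out of it. Starts are given 1-based. Regions were matched by identical positions and assigned to RefSeq genes of GRCm38.p6 (where genes overlap, the one with the closer end). Assignment matched a plain search in 1200 of 1200 simulated cases on 2350 genes. Members, lists and role groups were chosen with earlier results of these data known. Named were Zbtb7b, members with immune roles, members with 3 or more regions or a specific class, members without a region and list genes with 3 or more regions; others were added after their values were seen. Intervals came from scipy 1.17.1, tables from pandas 2.3.3 and numpy 2.4.6 and plots from matplotlib 3.10.9, under Python 3.11.15.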

Additional observations from a re-analysis of the deposited data

How the results depend on the processing

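Of 60 alternative values, 58 stayed within the interval of the reported share or within 1.5 times the reported count. They came from a limit of 20 kb, flanks of 10 kb whatever the nearest gene, the nearest gene of any type, regions in 2 classes counted as common, centres matched within 100 bp, leaving out Zbtb20 or Zbtb38 (the gene with the most regions of a comparison), 2.5 kb for gene ends and regions wider than 276 bp. The other 2 came from regions wider than 276 bp, where the Bcl11b-only share was 0% (0 of 5) and the KO-specific share 0% (0 of 17), beside 3.45% and 6.31% of all such regions. All 9 Bcl11b-only and all 6 KO-specific Zbtb regions have their set's modal width, so this alternative removes them by construction. Among the 58, the values for regions in 2 classes and for centres within 100 bp could not move, so they say nothing about stability. No Zbtb region stood in 2 classes. Regions did not overlap and were at least 198 bp wide, so no centres were that close. The limit of 20 kb dropped no Zbtb region of the Tn and KIKO comparisons, so their values could not move either. Nor could the KIKO-specific share, 0 of 6, where an alternative only drops regions. Genes with a region numbered 33 (nearest gene of any type, an alternative added after the data were seen) to 37 (10 kb flanks). The flanked gene bodies held 105 regions, 34 of them nearest to a gene outside the family. No paired analysis was possible because the lists carry no value per replicate, and for the same reason no replicate could be left out. Depth is unknown, so a region missing from a list is not shown to be unbound.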

Other observations

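Zbtb regions often came in close pairs. Of the 75, 20 (26.7%) had another region within 500 bp of their edge, beside 15.1% of all 22081 regions, a distance chosen after the values were seen. Of the 6 KO-specific Foxp3 regions, 4 had one (66.7%, beside 9.49% of all KO-specific regions). At Zbtb46, the gene of a dendritic cell factor, both KO-specific regions stood beside a Foxp3 region common to WT and KO cells, with gaps of 151 and 119 bp. At Zbtb38 the gap to a common region was 376 bp. At Zbtb44 the KO-specific Foxp3 region at 31031225 to 31031500 was separated by 5 bp from the Tn-specific Bcl11b region. Of the 15 lost Foxp3 regions, 3 had a neighbour within 500 bp (20%, beside 15.1% of all lost regions), those of Zbtb7a, Zbtb18 and Zbtb32. The lists give no peak summit, so whether such pairs are 1 site placed differently in 2 sets was not tested.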
